A study of Mus musculus with 186 samples.

Results

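The 4 genes described here encode proteins of the extracellular matrix or proteins that act on it: Acan, Adamts1, Adamts8 and Cyr61. They were chosen by name from the 298 genes of a capture panel made of activity-regulated genes and control genes, and all 4 were found in each table of that panel. In a second data set, the introns of the mouse transcriptome, they are covered by 5 of 27962 transcripts (Adamts8 by 2 transcripts that share introns), and 6 of 351 captured enhancers are assigned to them by their nearest gene: 1 to Acan, 2 to Adamts1, 3 to Cyr61 and none to Adamts8.

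The study asked how the duration of neuronal activity shapes gene expression. Cortical neurons taken from CD1 mouse embryos at E16.5 and kept for 7 to 8 days in vitro received sustained or brief activation for 20, 60 or 360 min or none, in the presence of U0126, of cycloheximide (CHX) or of DMSO as the vehicle. Adult male C57/Bl6 mice given SL327 or corn oil were exposed to sustained light, to brief light or kept in the dark, and their visual cortex was taken at 30 or 150 min. The labels do not say how the cultures were activated, and they do not number the mice.

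The gene capture held U0126 cultures with sustained activation for 20 min (3 replicates), 60 min (3) and 360 min (2) and unstimulated U0126 cultures (3). It held vehicle cultures with sustained activation for 20 min (3), 60 min (7) and 360 min (6), with brief activation for 20 min (3), 60 min (7) and 360 min (5), and unstimulated vehicle cultures (7). A separate cycloheximide experiment had 2 replicates in each of 4 groups. In visual cortex, the sustained light table had 3 light and 2 dark samples for each drug and time, and the brief light table had 3 samples in light at 30 min with either drug, 3 in the dark at 30 min with corn oil, and 2 in each other group. The cultures hold neurons that were taken before birth and matured outside the brain, whereas the visual cortex samples are adult tissue with all of its cell types, so the strain, the age and the preparation differ between them. The labels tie the cultures n.1 and n.2 of an unstimulated replicate to 1 dissection, and these were averaged; nothing else in them shows that replicates were separate cultures or animals, so that p-values measure the spread between these samples.

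Aggrecan, the product of Acan, is a large chondroitin sulfate proteoglycan of the lectican family, and in the brain it is a core component of perineuronal nets, the matrix coats around many parvalbumin interneurons. Adamts1 and Adamts8 encode secreted metalloproteases with thrombospondin motifs, and ADAMTS1 can cleave lecticans, aggrecan among them. Cyr61, now named Ccn1, encodes a secreted matricellular protein of the CCN family that binds integrins, and it is a classical immediate-early gene in fibroblasts. U0126 and SL327 inhibit the kinase MEK, which activates ERK. Cycloheximide blocks protein synthesis, and is used to ask whether a response needs newly made protein.

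The start regions of the genes are shown because one of them responded within an hour and another only at 360 min. RefSeq (GRCm38.p6) gave 300 bases for 3 of the 4 genes, 250 before and 50 after the annotated start; Adamts8 was not in the table. The region of Cyr61 lies at chr3:145649936-145650235 on the minus strand, that of Acan at chr7:79052976-79053275 on the plus strand and that of Adamts1 at chr16:85803064-85803363 on the minus strand. Capitals mark TATAAA and the TEAD motif GGAATG, which reads CATTCC on the other strand.
Cyr61: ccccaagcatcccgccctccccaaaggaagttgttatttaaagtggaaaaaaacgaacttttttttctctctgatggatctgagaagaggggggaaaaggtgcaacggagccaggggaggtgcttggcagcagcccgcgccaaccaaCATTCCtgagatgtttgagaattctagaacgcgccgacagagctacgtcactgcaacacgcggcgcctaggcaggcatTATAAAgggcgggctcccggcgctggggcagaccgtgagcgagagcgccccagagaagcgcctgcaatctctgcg
Acan: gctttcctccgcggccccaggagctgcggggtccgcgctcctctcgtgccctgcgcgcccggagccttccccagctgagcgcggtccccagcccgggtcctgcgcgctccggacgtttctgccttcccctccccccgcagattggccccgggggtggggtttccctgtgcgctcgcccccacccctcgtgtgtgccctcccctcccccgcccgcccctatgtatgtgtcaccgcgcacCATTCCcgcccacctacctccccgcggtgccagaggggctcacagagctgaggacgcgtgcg
Adamts1: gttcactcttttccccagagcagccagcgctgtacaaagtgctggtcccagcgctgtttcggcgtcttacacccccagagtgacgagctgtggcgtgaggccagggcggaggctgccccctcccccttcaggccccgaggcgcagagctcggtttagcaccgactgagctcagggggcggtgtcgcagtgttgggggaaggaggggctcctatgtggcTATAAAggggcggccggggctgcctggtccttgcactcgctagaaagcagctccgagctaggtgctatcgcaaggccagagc
Both strands were searched for TGACGTCA (the full cyclic AMP response element), TGACG (the start of that element, and part of it), TGANTCA (AP-1), the CArG box bound by serum response factor, GGAATG (TEAD), GCGTGGGCG (EGR) and TATAAA. The TATAAA letters lay 25 bases before the start of Cyr61 and 32 before that of Adamts1, and 13.6% of 32851 RefSeq promoters of this length hold it. GGAATG lay, on the reverse strand, 103 bases before the start of Cyr61 and 12 before that of Acan, against 14.7% of all promoters. TGACG lay 58 bases before the start of Cyr61 and 170 before that of Adamts1, against 20.8% of all promoters. The letters of the full element (1.79% of promoters), AP-1 (7.81%), the CArG box (1.63%) and EGR (0.612%) were in none of the 3 windows. Such matches describe the letters and are no sign of binding.

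The captured values are reads divided by a factor of each library that puts its 47 control genes at a mean of 1. That mean is geometric in the culture tables and arithmetic in the visual cortex tables, so the deposited values of the 2 are not on the same scale. Captured levels depend on the baits, so levels are compared between samples and not between genes. The culture libraries held 8498 to 3295698 reads on the panel, and those of visual cortex 270449 to 5744389. The library at 8498 reads, replicate 2 of brief activation at 60 min, had 100 panel genes and 2 of the 47 control genes at 0, and its values for these genes rest on few reads: 10 for Acan and none for Adamts8. In the unstimulated vehicle group, the 2 cultures of replicate 6 differed from each other over the 277 genes tested (r = -0.252 between their deviations from the group mean), and so did those of replicate 7 (r = -0.104), whereas culture 6.1 went with culture 7.2 (r = 0.796) and 6.2 with 7.1 (r = 0.399). Other pairs from 1 dissection had r of 0.442 to 0.843 in vehicle and 0.909 to 0.944 with U0126. Each result below that uses these cultures was also computed without the unstimulated cultures of both replicates, which left the number of the 4 genes past the threshold as it was in the comparisons of sustained and brief activation with the unstimulated state, sustained with brief activation at 360 min, and sustained activation for 360 min with U0126. Neuron markers were high in the total RNA libraries read through introns (10 of 10 in the table, summed level 3101 to 4517 RPM, reads scaled to the depth of the library), while Pvalb, which defines parvalbumin interneurons, was at 0 to 0.832. The other genes of the parvalbumin interneuron list, Kcnc1 and Tac1, stood at 20.6 to 35.7 and at 0.531 to 2.41 RPM. In these bulk samples, fewer cells of a type and less RNA per cell cannot be told apart.

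Cyr61 was the member that responded early. With sustained activation for 60 min its 7 replicates lay at a lowest value of 1.88, a median of 2.12 and a highest of 4.12, against 0.126, 0.435 and 1.72 in the 7 unstimulated replicates. The groups did not overlap. The log2 fold change was 2.50 ± 0.62 (SE; 95% interval 1.24 to 3.76; adjusted p = 0.00215, limma across the 277 genes tested), a 5.66-fold rise (2.37 to 13.5), and Cyr61 was 15th from the top of the panel. It was 1 of the 4 genes to pass a threshold of 0.05, where 13% of the panel did, and the median gene moved by 0.13 on the log2 scale. At the level of single cultures the groups did overlap, since culture 6.1 stood at 1.97 and culture 7.2 at 3.26. In replicates 5 to 7 taken alone the change was 1.67 ± 1.25 and did not pass (adjusted p = 0.586).

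At 20 min Cyr61 stood at 1.08, 0.347 and 2.73 in replicates 5, 6 and 7 with sustained activation and at 0.456, 2.76 and 1.32 with brief activation. Neither group differed from the unstimulated replicates beyond their spread (log2 fold changes 1.18 ± 0.80 and 1.42 ± 0.80, adjusted p = 0.9986 and 0.9972), while 2.17% of the panel passed in each of these comparisons. Both changes are against all unstimulated replicates, of which 1 to 4 had cultures at 0.121 to 0.440. Unstimulated cultures stood at 1.72 in replicate 5, 1.97 and 0.0835 in replicate 6, and 0.135 and 3.26 in replicate 7. In replicate 5 the value at 20 min of sustained activation was thus below the unstimulated one. After 60 min of brief activation its lowest, median and highest values were 0.568, 1.07 and 4.13, with a log2 fold change of 1.49 ± 0.62 (0.23 to 2.74) that did not pass (adjusted p = 0.244). Here 5.42% of the panel passed and none of the 4 genes did, by limma or by edgeR, while 1 of them, Cyr61, had an unadjusted p under 0.05. In a fit with the replicate number as a block 1 of the 4 genes passed, where 21 panel genes did in place of 15. Acan had a lowest, median and highest value of 0.00335, 0.0327 and 0.739 in these cultures, the highest being the library of 8498 reads (0.52, adjusted p = 0.695). The log2 changes of Adamts1 and Adamts8 were 0.21 and -0.45 (adjusted p = 0.857 and 0.633). The direct difference between sustained and brief activation at 60 min was 1.02 ± 0.62 for Cyr61, and it did not pass either (adjusted p = 0.537; 7.58% of the panel passed). With the replicate number as a block and without the library of 8498 reads that difference did pass, where 29 panel genes passed in place of 21.

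At 60 min of sustained activation none of the other members passed, although not all values lay within the unstimulated range. Acan replicates at 0.0989, 0.0663 and 0.0525 lay above that range and 1 at 0.00678 lay below it. Adamts8 replicates at 0.173 and 0.185 lay above theirs. Acan had a lowest, median and highest value of 0.00678, 0.0344 and 0.0989, against 0.0171, 0.0268 and 0.0394 when unstimulated (log2 fold change 0.25 ± 0.57, adjusted p = 0.875). Adamts1 gave 0.622, 0.705 and 1.58 against 0.310, 0.517 and 3.83 (0.32 ± 0.44, adjusted p = 0.775). Adamts8 gave 0.0764, 0.138 and 0.185 against 0.0684, 0.118 and 0.170 (0.19 ± 0.41, adjusted p = 0.858). The high unstimulated value of Adamts1 came from replicate 5 alone.

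**Figure D1:**
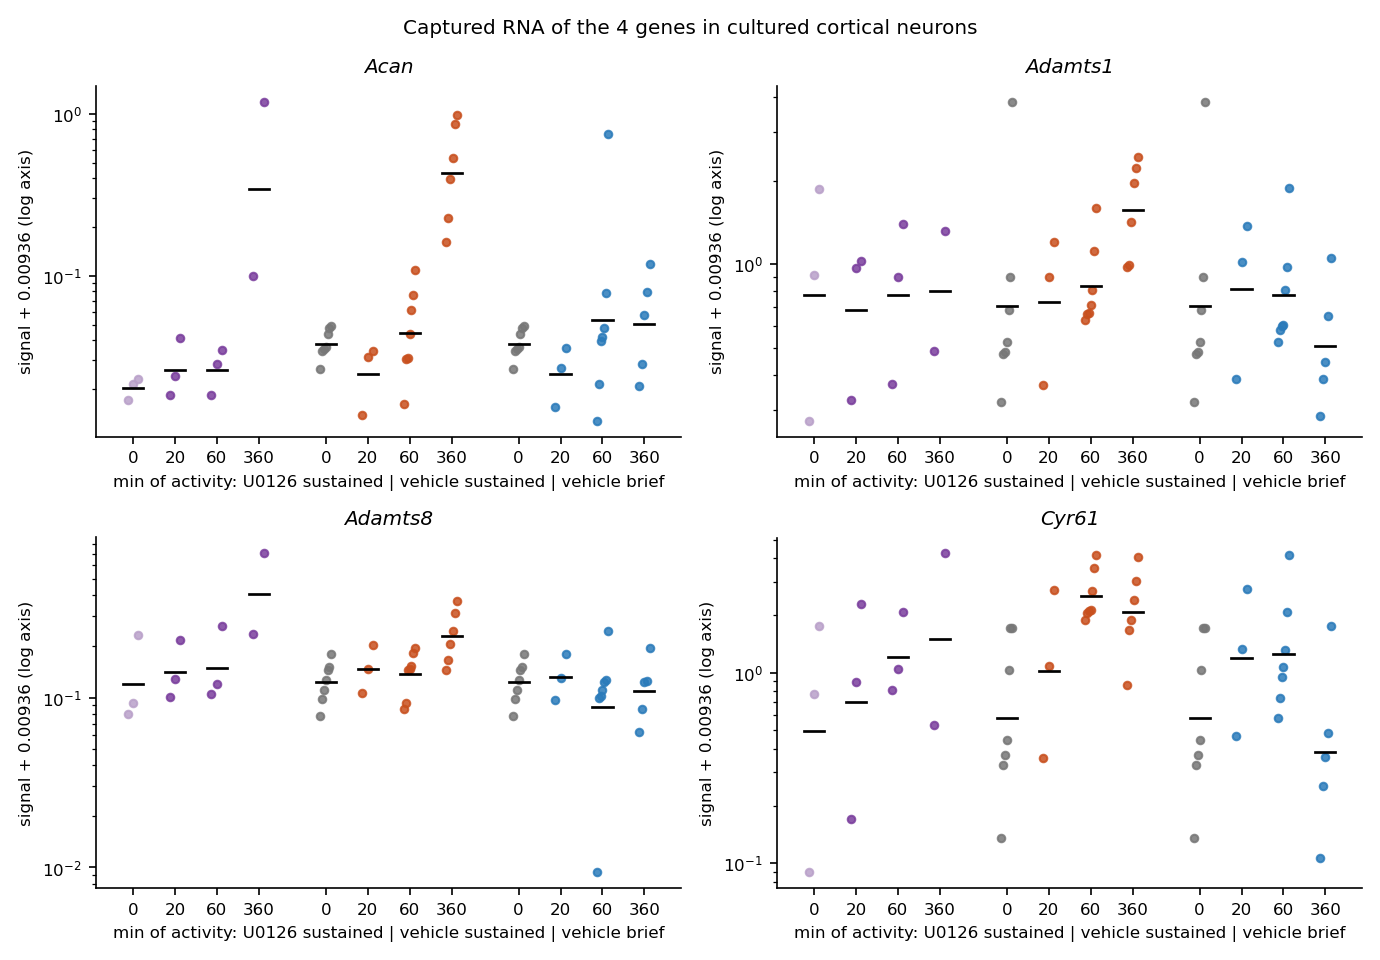
Level of each gene in cultured neurons, as captured signal plus the pseudocount 0.00936 on a log axis, against minutes of activation, for U0126 with sustained activation, vehicle with sustained activation and vehicle with brief activation. Each dot is 1 replicate and the bar is the geometric mean, and the same unstimulated vehicle cultures are drawn for both vehicle series; Cyr61 is high at 60 min with sustained activation, and Acan is high at 360 min with sustained and not with brief activation. The single high Acan point at 60 min of brief activation, 0.739, is the library of 8498 reads.

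At 360 min of sustained activation all 4 genes were higher than in unstimulated cultures, and so was most of the panel. Of the 277 genes tested 71.1% passed and 69.7% passed upward, with a median log2 fold change of 1.502, so 4 of 4 members is close to the share of the panel. Acan had the steepest change of the 4. Its values at 360 min were 0.152, 0.452 and 0.973 (lowest, median, highest; n = 6), all above the unstimulated range of 0.0171 to 0.0394 (n = 7). The log2 fold change was 3.53 ± 0.59 (2.34 to 4.72; adjusted p = 1.4e-06, limma), an 11.6-fold rise (5.06 to 26.4) that is understated to some degree by the pseudocount of 0.00936. Acan ranked 12th of 277 genes, and it remained past the threshold in replicates 5 to 7 alone (3.51 ± 0.83, adjusted p = 0.0011).

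Cyr61 was still high at 360 min, with 0.848, 2.14 and 4.03 (lowest, median, highest) against 0.126, 0.435 and 1.72 in unstimulated replicates. Its log2 fold change was 2.21 ± 0.65 (0.90 to 3.52; adjusted p = 0.00256), a 4.62-fold rise. The ranges overlapped. Between 360 and 60 min of sustained activation Cyr61 differed by -0.29 ± 0.65 (-1.60 to 1.02; adjusted p = 0.701), whereas Acan was 9.75-fold higher at 360 min (3.28 ± 0.59, adjusted p = 6.68e-06), where 62.8% of the panel passed, 58.8% of it upward and 3.97% downward.

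The proteases moved less. Adamts1 had 0.969, 1.68 and 2.42 at 360 min against 0.310, 0.517 and 3.83 in unstimulated replicates, and all 6 lay above 6 of the 7 unstimulated values. Its log2 fold change was 1.22 ± 0.46 (0.30 to 2.15; adjusted p = 0.0165), a 2.34-fold rise, although edgeR on the recovered reads gave 0.75 with an adjusted p of 0.159. Adamts8 had 0.137, 0.217 and 0.362 against 0.0684, 0.118 and 0.170. That change, 0.93 ± 0.43 (0.07 to 1.79), lay just inside the threshold (adjusted p = 0.0486) and was lost in 31 of 49 fits that left out 1 replicate of 1 group.

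How these late changes read depends on the scale. Setting each library on all panel genes in place of the control genes moved every log2 change of this comparison down by 1.35, and 19.5% of the panel then passed upward and 21.7% downward, in place of 69.7% and 1.44%. On that scale Acan was still higher (2.18, adjusted p = 0.00295), Cyr61 no longer passed (0.86, adjusted p = 0.268), and the sign turned for Adamts1 (-0.13) and Adamts8 (-0.42).

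After 360 min of brief activation no member differed from the unstimulated replicates beyond their spread. Acan stood at 0.108, 0.0697, 0.0477, 0.0114 and 0.0193 in the 5 replicates, and Cyr61 at 0.245, 0.474, 0.353, 0.0977 and 1.75. Of the Acan values 3 lay above the unstimulated range of 0.0171 to 0.0394 and 1 below it, and of the Cyr61 values 1 lay above and 1 below the range of 0.126 to 1.72. None of the 4 genes passed, by limma or by edgeR, none had an unadjusted p under 0.05, and 0% of the panel passed (9 genes had an unadjusted p under 0.05, and edgeR called 0). The log2 fold changes were 0.42 for Acan, -0.40 for Adamts1, -0.13 for Adamts8 and -0.22 for Cyr61 (adjusted p = 0.997 for each).

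Sustained activation exceeded brief activation at 360 min for all 4 genes, where 67.5% of the panel passed and 66.4% passed upward. The log2 difference was 3.11 ± 0.64 for Acan (8.62-fold, adjusted p = 5.71e-05), and its 2 groups did not overlap. For Cyr61 it was 2.43 ± 0.71 (5.39-fold, adjusted p = 0.00281), for Adamts1 1.63 ± 0.50 (3.09-fold, adjusted p = 0.00467) and for Adamts8 1.06 ± 0.46 (2.09-fold, adjusted p = 0.0401). Adamts8 lost its call in 7 of 49 fits that left out a replicate, and on the scale of all panel genes, 1.28 lower here, 15.5% of the panel passed upward and 20.6% downward. Acan alone of the 4 passed on that scale (1.82, adjusted p = 0.0257), and Adamts8 changed sign (-0.22).

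**Figure D2:**
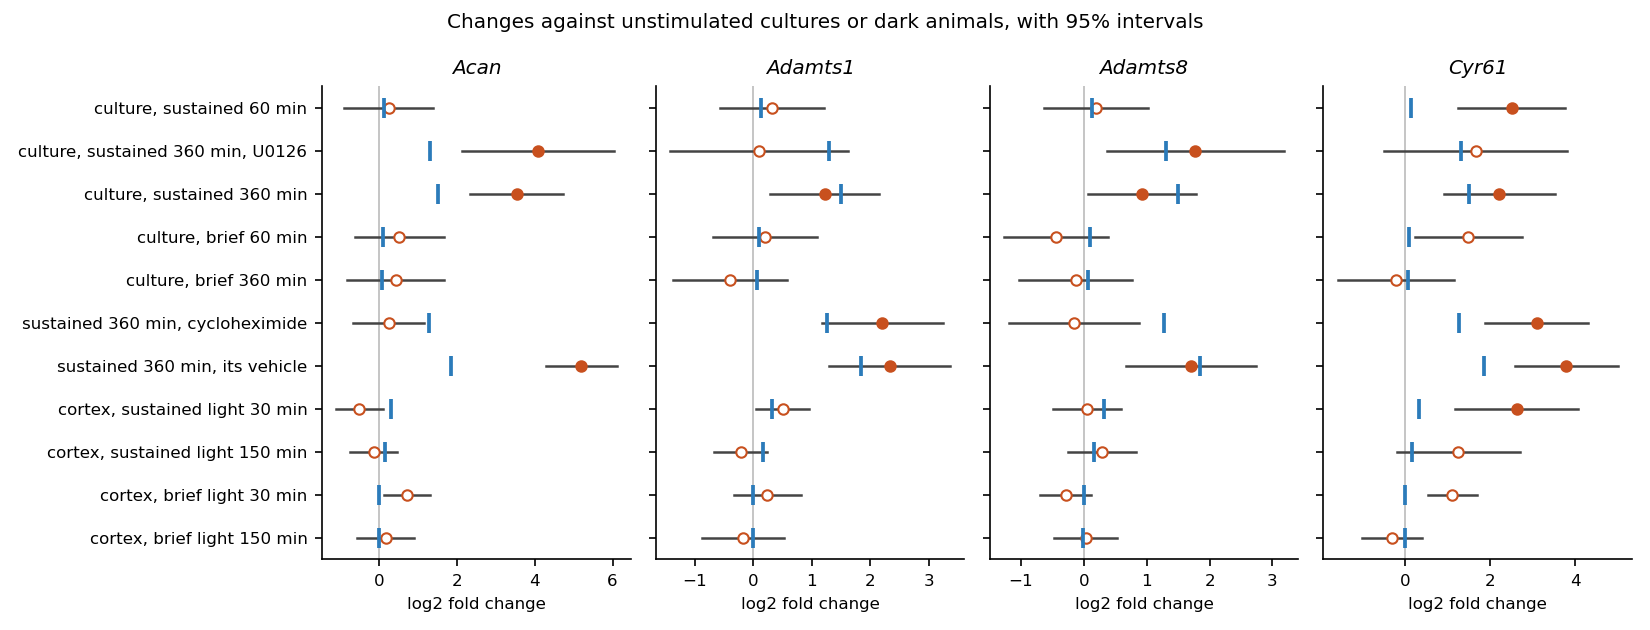
Log2 fold changes of the 4 genes with 95% intervals in the main culture and visual cortex comparisons; filled points have an adjusted p under 0.05, and the blue tick is the median of all features tested in that comparison. The median of the panel itself is 1.502 at 360 min of sustained activation, so Acan at 3.53 and Cyr61 at 2.21 lie above it, and Adamts1 at 1.22 and Adamts8 at 0.93 below it.

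With protein synthesis blocked, Acan was not higher at 360 min than in unstimulated cultures. At 360 min of sustained activation with cycloheximide Acan had 0.00961 and 0.0202, against 0.0102 and 0.0104 in unstimulated cultures with cycloheximide. Without the inhibitor it had 1.26 and 0.541, against 0.0112 and 0.0116 in unstimulated vehicle cultures. The activated cultures with cycloheximide rested on 52 and 202 reads of Acan and gave a log2 fold change of 0.25 ± 0.42 (-0.66 to 1.16; adjusted p = 0.665). In vehicle it rose by 5.19 ± 0.42 (adjusted p = 1.55e-06), or 36.6-fold (19.4 to 68.7).

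The difference between these responses, the interaction of cycloheximide with sustained activation, was -4.95 ± 0.59 for Acan (-6.23 to -3.66; adjusted p = 0.000738). It was the lowest of all 283 genes tested, and 15.9% of them passed; none of the 8 libraries was needed for the call. Between stimulated cultures, cycloheximide against vehicle, Acan was likewise the lowest of 283 (-5.01 ± 0.42, adjusted p = 8.38e-06; 40.6% passed).

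Cyr61 and Adamts1 rose with protein synthesis blocked. Cyr61 had 1.53 and 3.02 at 360 min with cycloheximide, against 0.145 and 0.398 in unstimulated cultures with cycloheximide. In vehicle it had 0.865 and 1.85, against 0.0544 and 0.117 when unstimulated. The rise was 8.54-fold with cycloheximide (3.09 ± 0.56, adjusted p = 0.000451) and 13.9-fold in vehicle (3.79 ± 0.56, adjusted p = 0.000103), and the difference of -0.70 ± 0.79 did not pass (-2.42 to 1.02; adjusted p = 0.588).

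Adamts1 had 1.61 and 2.73 with cycloheximide and activation, against 0.291 and 0.676 with cycloheximide alone. In vehicle it had 1.59 and 2.46, against 0.287 and 0.509 when unstimulated. It rose 4.62-fold with the inhibitor (2.21 ± 0.48, adjusted p = 0.0017) and 5.05-fold without it (adjusted p = 0.000817), with a difference of -0.13 ± 0.67 (-1.59 to 1.34; adjusted p = 0.924). Its interval leaves room for a response less than or more than that of vehicle by over 1 on the log2 scale.

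Adamts8 passed in vehicle and not with cycloheximide. It had 0.162 and 0.0992 with cycloheximide and activation, against 0.134 and 0.153 with cycloheximide alone, and 0.428 and 0.138 in activated vehicle cultures, against 0.0600 and 0.0754 when unstimulated. It rose in vehicle (1.70 ± 0.47, adjusted p = 0.00561), a call lost without replicate 1 of the activated vehicle cultures (0.92, adjusted p = 0.0582), and its change with cycloheximide was -0.16 ± 0.47 (adjusted p = 0.805). The difference between the responses was -1.86 ± 0.67 (-3.32 to -0.40; adjusted p = 0.0803), which passed without replicate 2 of the activated vehicle cultures (-2.64, adjusted p = 0.00425).

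In this experiment 74.6% of the panel passed in vehicle, where 4 of 4 members did, and 55.8% with cycloheximide, where 2 of 4 did. On the scale of all panel genes the vehicle changes were 1.70 lower and those with cycloheximide 1.23 lower, with 18% up and 21.2% down in vehicle and 28.3% up and 27.6% down with cycloheximide. Acan and Cyr61 then still passed in vehicle, and Adamts1 (0.64, adjusted p = 0.300) and Adamts8 (0.00) did not. With cycloheximide Cyr61 still passed (1.86, adjusted p = 0.0137), Adamts1 did not (0.98, adjusted p = 0.0825), and Adamts8 passed as lower (-1.39, adjusted p = 0.027). In unstimulated cultures cycloheximide did not change any of the 4 past the threshold, although Cyr61 (1.46 ± 0.56, adjusted p = 0.144) and Adamts8 (0.97 ± 0.47, adjusted p = 0.249) were higher in both treated cultures than in both vehicle cultures (11.3% of the panel passed).

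**Figure D3:**
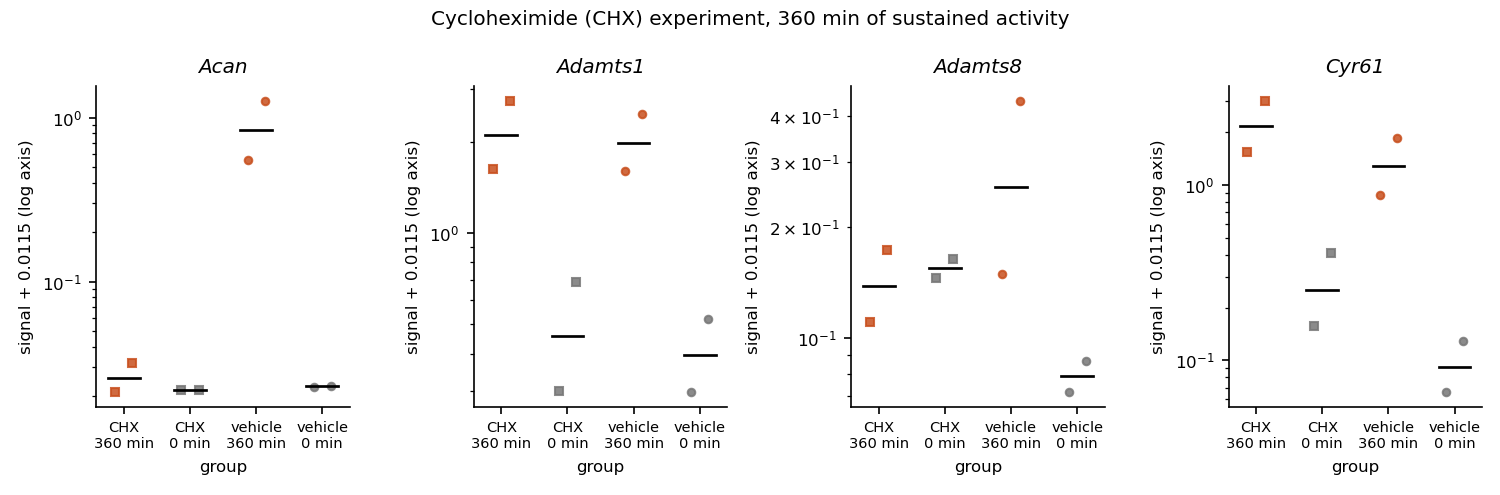
Captured signal plus the pseudocount 0.0115 on a log axis in the 2 replicates of each group of the cycloheximide experiment, with cycloheximide on the left of vehicle and 360 min of sustained activation on the left of the unstimulated state. Acan at 360 min is near 0.01 to 0.02 with cycloheximide and at 0.541 and 1.26 in vehicle, while Cyr61 and Adamts1 are high at 360 min under both.

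The MEK inhibitor U0126 did not remove the late rise of Acan. The deposited U0126 table is listed both for sustained and for brief activation with identical values, and it is read here as sustained. With U0126 and 360 min of sustained activation Acan had 0.0899 and 1.17, against 0.0120, 0.0135 and 0.00767 in unstimulated U0126 cultures. The log2 fold change was 4.09 ± 0.97 (2.14 to 6.05; adjusted p = 0.000736), or 17.1-fold, with an interval of 4.41 to 66.2. Acan ranked 9th of 277, and 50.5% of the panel passed. The 2 replicates were far apart, and without replicate 7 of the stimulated group the change was 2.31 and no longer passed (adjusted p = 0.115).

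Of the other members, Adamts8 also passed with U0126 at 360 min, with 0.227 and 0.695 against 0.0704, 0.0836 and 0.223 in unstimulated U0126 cultures (1.78 ± 0.70, adjusted p = 0.0324). That call was lost when any of 3 single replicates was left out: stimulated replicate 7, or unstimulated replicate 5 or 6. Adamts1 had 0.478 and 1.31 against 1.85, 0.264 and 0.907 (0.10 ± 0.75, adjusted p = 0.927), and Cyr61 had 0.521 and 4.22 against 0.767, 0.0801 and 1.74 (1.65 ± 1.06, adjusted p = 0.195). At 20 min with U0126, Cyr61 had 0.882, 0.162 and 2.29 (0.57 ± 0.95, adjusted p = 0.921), and 0.361% of the panel and none of the 4 genes passed, by limma or by edgeR. At 60 min with U0126, Cyr61 had 1.03, 0.806 and 2.07 against those same unstimulated values (1.34 ± 0.95, adjusted p = 0.548), and 7.22% of the panel and none of the 4 genes passed, by limma or by edgeR.

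Set directly against vehicle, U0126 gave lower Cyr61 at 60 min (-1.07 ± 0.80, -2.70 to 0.55; adjusted p = 0.993) and lower Adamts1 at 360 min (-0.97 ± 0.67, adjusted p = 0.977). Neither passed, and 1.44% and 0% of the panel did. At 60 min the U0126 replicates 5, 6 and 7 had Cyr61 at 1.03, 0.806 and 2.07. Each lay below the vehicle replicate of the same number (2.09, 1.88 and 4.12). None of the 4 genes passed in that comparison under any alternative fit, the replicate block among them. The interaction of U0126 with sustained activation was -1.16 ± 1.14 for Cyr61 at 60 min (-3.45 to 1.14) and 0.56 ± 1.13 for Acan at 360 min (-1.73 to 2.85). At 360 min it was -1.13 ± 0.88 for Adamts1 (-2.91 to 0.66), 0.84 ± 0.82 for Adamts8 (-0.81 to 2.50) and -0.55 ± 1.25 for Cyr61 (-3.07 to 1.96), with an adjusted p of 0.98 for each at 360 min and 0.998 for Cyr61 at 60 min. No gene of the panel passed in either interaction, while 6 and 4 genes had an unadjusted p under 0.05 at 60 and 360 min and edgeR called 1 and 0. These intervals include changes by more than 1 on the log2 scale in both directions for Acan, so with 2 replicates a partial effect of the inhibitor was not detectable. In unstimulated cultures Acan was lower with U0126 (0.00767 to 0.0135) than in any vehicle replicate (0.0171 to 0.0394), a difference that did not pass (-0.90 ± 0.73, adjusted p = 0.807; 0% of the panel passed, with 15 genes at an unadjusted p under 0.05). At the level of single cultures the groups overlapped, since vehicle culture 6.2 stood at 0.00816 and U0126 cultures at 0.00696 to 0.0165.

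Introns in total RNA report on unprocessed transcripts, and here the libraries of 1 replicate number deviated together, so results at 60 min are given also with that number as a block. Cyr61 (NM_010516) differed between the 2 replicates before any activation. In unstimulated vehicle cultures it had 1.21 and 1.74 RPM in replicate 1 and 23.6 and 36.7 in replicate 2. Markers of several cell types also differed between the 2 replicates, in both directions. The summed endothelial markers (5 of 6 in the table) were at 1.62 to 2.63 in replicate 1 and at 31.3 to 43.9 in replicate 2, almost wholly from Kdr (median 0.579 and 37.5), while Pecam1 (1.04 and 1.03) and Cdh5 (0.0227 and 0.0609) were low in both. The 6 fibroblast and pericyte markers summed to 7.14 to 11.1 and 11.8 to 20.9, although Dcn among them was lower in replicate 2 (median 1.92 and 0.735). Astrocyte markers summed to 293 to 363 and 426 to 503. Lower in replicate 2 were the sums of neuron markers (3940 to 4517 and 3101 to 3552) and oligodendrocyte lineage markers (129 to 162 and 69.2 to 87.0). The part of any of these cells in the level of Cyr61 was not tested.

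Within each replicate number Cyr61 introns were higher after sustained activation. In replicate 1 they stood at 12.3 RPM after 20 min and 29.1 after 60 min. In replicate 2 they stood at 40.5 after 20 min and 74.8 after 60 min. The 60 min change was 2.73 ± 1.84 without the block (adjusted p = 0.496) and passed with the block, at 2.73 ± 0.72 (adjusted p = 0.0245). Adamts1 introns (NM_009621) behaved alike at lower amplitude, at 10.9 and 20.1 RPM after 60 min, against 4.83 and 5.34 in replicate 1 and 13.7 and 15.5 in replicate 2 when unstimulated. That change was 0.76 ± 0.91 (adjusted p = 0.793) without and 0.76 ± 0.18 (adjusted p = 0.0149) with the block. Across the 21520 transcripts tested 7.77% passed without and 22.4% with the block.

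The introns of Acan and Adamts8 did not pass at 60 min. Acan introns (NM_007424) stayed at 0.167 to 1.06 RPM in all libraries, 3 to 21 reads, at a change of 0.70 ± 0.43 (adjusted p = 0.447, and 0.19 with the block). For the 2 Adamts8 transcripts the changes were -0.07 and -0.09. No intron library was taken at 360 min, when spliced Acan was high. At 20 min Cyr61 changed by 1.67 with sustained and 1.69 with brief activation, and neither passed with the block (adjusted p = 0.303 and 0.314; 0.934% and 0.855% of transcripts passed).

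With U0126, Cyr61 introns were at 17.7 RPM after 60 min of sustained activation in replicate 1, against 1.304 and 0.578 when unstimulated with U0126; the replicate 2 library held the same values as another sample and was left out. With the block the change was 3.03 ± 0.90 (adjusted p = 0.0536; 13.5% of transcripts passed), and the interaction with U0126 was 0.30 ± 1.15 (adjusted p = 0.997).

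**Figure D4:**
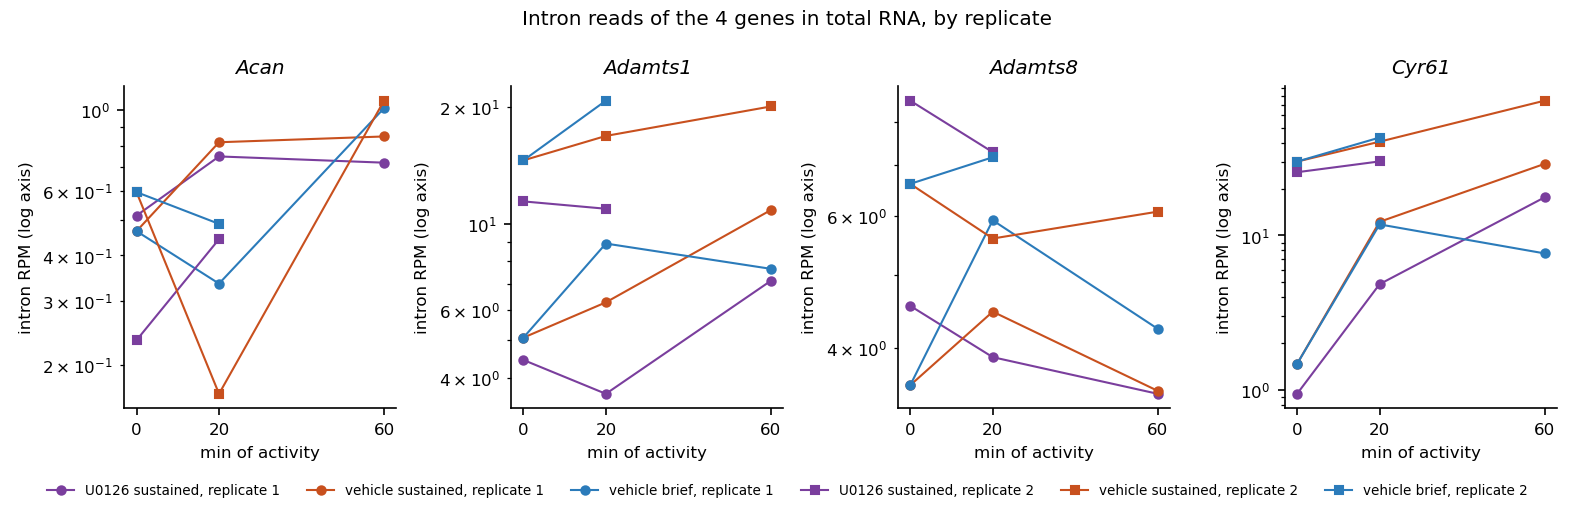
Intron RPM on a log axis for the 4 genes against minutes of activation, with a line for each replicate number (circles 1, squares 2) and colours for U0126 with sustained, vehicle with sustained and vehicle with brief activation. For Cyr61 the lines of replicate 2 lie far above those of replicate 1 from the start, and within each number vehicle cultures are higher at 60 min of sustained activation than when unstimulated.

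The genes next to the 4 members were read in the same introns, chosen after the members' values were seen. At 60 min of sustained activation the log2 change was 0.42 for Isg20 and -0.15 for Hapln3 on either side of Acan, -0.33 for Adamts5 beside Adamts1, -0.64 for Adamts15 and -0.19 for Zbtb44 beside Adamts8, and 0.00 for Znhit6 and -0.02 for Ddah1 beside Cyr61. Wider lists of matrix genes gave few calls. Without the block 0 of 14 tested lectican and net genes rose and 1 fell (Vcan, encoding versican, -0.68), 0 of 22 ADAMTS genes, 0 of 5 CCN genes and 0 of 19 matrix proteases and inhibitors passed, with list medians of -0.11, -0.10, 0.06 and -0.16. With the block, the lectican list had 0 up and 3 down (Cspg4 -0.72, Vcan -0.68, Has3 -1.06), the ADAMTS list 1 up (Adamts1) and 1 down (Adamts15), the CCN list 1 up (Cyr61) and 1 down (Wisp2, -0.43), and the protease list 1 up (Plat, encoding tissue plasminogen activator, 0.34) and 3 down (Mmp16, Reck and Timp3), where 7.34% of transcripts rose and 15.1% fell. Markers of other cells moved in the same comparison. Of 7 tested oligodendrocyte lineage markers 3 fell with the block (Cspg4, which is also in the lectican list, Olig2 by 1.03 and Sox10 by 0.92), at a list median of -0.51, and the 8 in the table summed to 69.8 to 143 RPM at 60 min of sustained activation, against 83.5 to 162 RPM in unstimulated cultures, with none at 0. Of 6 tested astrocyte markers 2 fell (Aqp4 and Slc1a2), and the 7 in the table summed to 310 to 459 RPM, against 354 to 476 RPM. With the block, 1 of 2 tested parvalbumin interneuron markers fell (Kcnc1, -1.03), and the 3 in the table summed to 22.7 to 23.7 RPM, against 29.5 to 37.4 RPM. Of 10 tested neuron markers 1 rose (Snap25, 0.60). Their part in the calls of the lists was not tested.

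Transcripts from the enhancers nearest to these genes were captured in 4 replicates (coordinates in mm9), and none of the 6 regions passed in any of the 4 vehicle comparisons with the unstimulated state, without or with a replicate block. With the block, 57 of all 343 regions tested passed at 60 min of sustained activation and 13 at 20 min of brief activation. Of the 6 regions, the highest fold change at 20 min of sustained activation was that of the Cyr61 region chr3:145315840-145317000. It had 12.03, 17.98, 1.91 and 2.49 after 20 min of sustained activation, against 0.0649, 4.48, 0.701 and 0.740 in unstimulated cultures. The groups overlapped, although each activated value lay above the unstimulated one of the same replicate number. The log2 change was 2.52 ± 1.13 (adjusted p = 0.357, where 1.17% of 343 regions passed). After 20 min of brief activation it had 13.8, 13.5, 2.48 and 2.65 (2.58 ± 1.13, adjusted p = 0.524; 1.75% passed).

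With U0126 and 20 min of sustained activation the same region had 1.65, 8.19, 1.25 and 1.75, against 1.24, 5.48, 0.221 and 0.388 in unstimulated U0126 cultures (1.11, adjusted p = 0.99898). Within each replicate number the activated U0126 value lay above the unstimulated U0126 value and below the activated vehicle value. The difference from the vehicle response was -1.41 ± 1.60. After 60 min of sustained activation the vehicle change was 1.97 ± 1.13 there (adjusted p = 0.337; 9.91% passed), 0.65 and 0.55 at the 2 Adamts1 regions (chr16:85804190-85805250 and chr16:85805460-85806770), and -0.05 at the Acan region (chr7:86338820-86340100).

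In visual cortex Cyr61 was the member that responded to light. At 30 min of sustained light with corn oil it had 0.316, 0.220 and 0.0714, against 0.0313 and 0.0202 in the dark with corn oil. All 3 light samples lay above both dark samples, at a log2 fold change of 2.62 ± 0.68 (1.17 to 4.07; adjusted p = 0.0112), or 6.15-fold (2.25 to 16.8). No other of the 266 genes tested had a higher fold change, and 34.2% of them passed. The call was lost without the second dark sample (adjusted p = 0.0987) and on the scale of all panel genes (2.32, adjusted p = 0.0551), which was 0.30 lower.

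At 150 min of sustained light Cyr61 had 0.161, 0.0226 and 0.0535, against 0.0196 and 0.0268 in the dark, and the groups overlapped (1.25 ± 0.68, adjusted p = 0.243; 9.4% passed). With SL327 the 30 min values were 0.0423, 0.0314 and 0.0578 in light, against 0.0238 and 0.0337 in the dark (0.54 ± 0.68, -0.91 to 1.99; adjusted p = 0.717; 3.38% passed). The 150 min values with SL327 were 0.102, 0.0316 and 0.0443 in light, against 0.0195 and 0.0247 in the dark. These groups did not overlap, and the change did not pass. By fold change from dark to light with SL327, Cyr61 was 5th of 266 genes at 30 and at 150 min. In light at 30 min each SL327 sample was below each corn oil sample (-1.93 ± 0.61, -3.23 to -0.63), but the difference did not pass (adjusted p = 0.122; 1.88% passed). It did so without the lowest of the corn oil samples in light (-2.54, adjusted p = 0.00959). The interaction of SL327 with sustained light was -2.08 ± 0.96 (-4.14 to -0.03; adjusted p = 0.133; 19.9% passed).

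Brief light gave Cyr61 0.0421, 0.0544 and 0.0556 at 30 min with corn oil, against 0.0179, 0.0307 and 0.0183 in the dark. The groups did not overlap, and the 2.14-fold change (1.10 ± 0.27, 0.52 to 1.68) stayed short of the threshold with limma (adjusted p = 0.0703; 1.15% passed) and passed with edgeR (1.18, adjusted p = 0.0324). With SL327 in brief light it had 0.0217, 0.0185 and 0.0282. That was lower than with corn oil in brief light, in all 3 samples against all 3 (-1.05 ± 0.27, -1.63 to -0.47; adjusted p = 0.0334; 5% passed), a call lost in 4 of 19 fits that left out 1 sample, namely either of 2 samples in each of these groups. Against the dark with SL327 (0.0196 and 0.0216) the change was 0.11 ± 0.30 (adjusted p = 0.906; 0% passed). The interaction of SL327 with brief light did not pass (-0.99 ± 0.41, adjusted p = 0.575). At 150 min the dark samples with corn oil were themselves high, with 0.0953 and 0.0645 in light against 0.100 and 0.0972 in the dark (-0.32 ± 0.33, adjusted p = 0.736; 0% passed).

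The other members did not pass in any light comparison. Adamts1 at 30 min of sustained light had 0.109, 0.0954 and 0.0957 with corn oil, against 0.0673 and 0.0714 in the dark, without overlap (0.51 ± 0.21, adjusted p = 0.0737). With SL327 it had 0.0745, 0.0788 and 0.0794 in light, against 0.0859 and 0.0926 in the dark (-0.20 ± 0.21), and the interaction of -0.70 ± 0.30 did not pass (adjusted p = 0.107). Without the first 150 min light sample with corn oil, which only enters the estimate of the spread, both passed (adjusted p = 0.0208 and 0.0304).

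Acan gave opposite signs under the 2 kinds of light, in separately scaled tables. It had 0.0141, 0.0104 and 0.00629 at 30 min of sustained light, against 0.0135 and 0.0175 in the dark (-0.51 ± 0.28, adjusted p = 0.164). In brief light it had 0.0164, 0.0165 and 0.0272, against 0.00740, 0.0120 and 0.0129 (0.72 ± 0.28, adjusted p = 0.297), 9th of 260 genes. At 150 min Acan differed from the dark with corn oil by -0.14 ± 0.28 after sustained and 0.16 ± 0.34 after brief light (adjusted p = 0.799 and 0.879). Adamts8 was low throughout, at 0.00434 to 0.0184, with a change of 0.05 ± 0.25 at 30 min of sustained light (adjusted p = 0.909). Its largest difference from the dark was 0.86 ± 0.23 at 150 min of brief light with SL327 (0.0139 and 0.0150 against 0.00566 and 0.00726), which did not pass (adjusted p = 0.291).

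**Figure D5:**
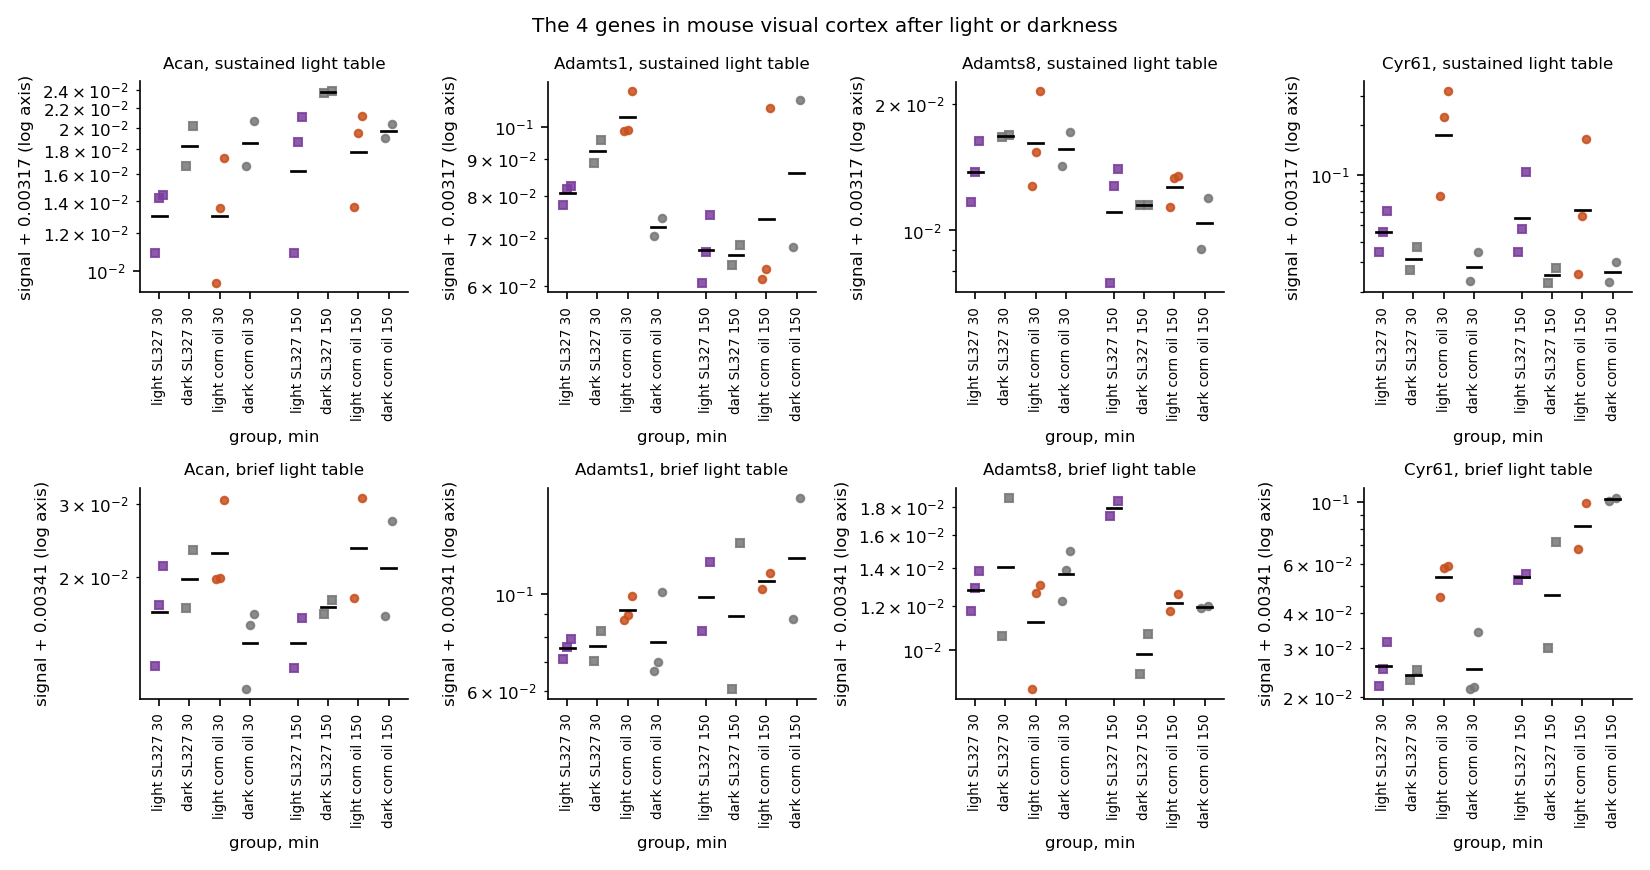
Captured signal in visual cortex on a log axis (plus 0.00317 in the sustained light table, top row, and 0.00341 in the brief light table, bottom row), for light and dark with SL327 and with corn oil at 30 and at 150 min; each dot is 1 sample and bars are geometric means. Cyr61 at 30 min is higher in light than in the dark with corn oil in both rows, and its light samples with SL327 lie below those with corn oil.

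To set cultures beside cortex, reads were divided by the arithmetic mean of the 47 control genes in both. On this scale Acan was at a median of 0.0165 in the dark cortex samples of the sustained light table (0.0135 to 0.0175, n = 4) and 0.0127 in those of the brief light table (0.0074 to 0.0239, n = 5), against 0.00967 in unstimulated cultures (0.00525 to 0.0116, n = 7). The medians of the other members were in the reverse order. Cyr61 was at 0.0235 (0.0196 to 0.0313) and 0.0307 (0.0179 to 0.100) in cortex and at 0.124 (0.0382 to 0.627) in culture. Adamts1 was at 0.0693 (0.0648 to 0.106) and 0.0845 (0.0633 to 0.163) in cortex and at 0.139 (0.0936 to 1.40) in culture. Adamts8 was at 0.00995 (0.00587 to 0.0140) and 0.00881 (0.00847 to 0.0116) in cortex and at 0.0319 (0.0250 to 0.0460) in culture, and its ranges did not overlap. Strain, age, tissue and table differ together and cannot be told apart, so no test was made.

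The 4 genes did not share a pattern over the 11 culture groups. Pearson's r between their group means was 0.474 for Acan and Cyr61, 0.607 for Acan and Adamts1, 0.746 for Acan and Adamts8, 0.711 for Adamts1 and Cyr61, 0.453 for Adamts1 and Adamts8 and 0.448 for Adamts8 and Cyr61. Many replicate numbers recur across the groups. Among the 276 other panel genes, Cyr61 was most like Fos (0.9748), Fosb (0.958) and Junb (0.935), which encode subunits of the transcription factor AP-1. Acan was most like Sv2c (0.985), which encodes a synaptic vesicle protein, Brinp1 (0.984) and Maml3 (0.983). Adamts8 was most like Atp10d (0.964), Tll1 (0.947) and Osbpl3 (0.935), and Adamts1 was most like Mest (0.904), Dio2 (0.889) and Serpinb2 (0.834).

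Of the wider matrix lists, the panel held 1 gene besides the 4 members, Ctgf, the CCN family relative of Cyr61. In culture it did not pass at 60 min (0.33 ± 0.65, adjusted p = 0.854) or 360 min of sustained activation (1.17 ± 0.68, adjusted p = 0.118). In the cycloheximide experiment it rose in vehicle (2.26 ± 0.51, adjusted p = 0.00146) and with cycloheximide (1.98 ± 0.51, adjusted p = 0.00514), with a difference of -0.29 (adjusted p = 0.839). In visual cortex Ctgf averaged 0.329 ± 0.0205 at 30 min of sustained light with corn oil and 0.211 ± 0.0331 in the dark (SD, n = 3 and 2), a change of 0.64 ± 0.21 that passed (adjusted p = 0.0300), against 0.16 with SL327 (adjusted p = 0.717).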

How the data were processed

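Deposited tables of 2 units were used. The captured gene and enhancer values are a signal: per the submitters' processing notes STAR, SAMtools and bedtools were used with mm9, and the values test as reads divided by 1 factor per library. After the addition of 0.01 read, the geometric mean of the 47 control genes is 1 in all 66 culture columns, and their arithmetic mean is 1 in all 39 visual cortex columns. The intron table, deposited by the authors, is in RPM. Dividing out the factors gave whole reads for 100% of values (tolerance 0.05 reads). The labels name a stranded total RNA kit; the rule by which reads were counted per gene is not given in them.

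Tests used limma 3.58.1 (R 4.3.3) on log2(value + pseudocount), with the 10th percentile of the nonzero values as the pseudocount: 0.00936 and 0.0115 for the gene capture and cycloheximide tables, 0.00317 and 0.00341 for the sustained and brief light tables, 0.248 for introns and 0.229 for enhancers. Features with a mean under the pseudocount were left out. Fold changes are on this scale and understate the change of low genes. All groups of an experiment shared 1 fit, unstimulated cultures that the labels tie to 1 dissection were averaged on the log2 scale for the fit and as plain means in the text, and p-values were adjusted by Benjamini-Hochberg over the table, with a threshold of 0.05. edgeR 4.0.16 (quasi-likelihood, with the deposited scale as offset) on the recovered reads, other pseudocounts, rescaling on all features, the replicate block and leaving out each replicate were alternatives. Intervals of counting error were not added, and read depth limits the low genes. Scripts were tested on simulated data.

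Shared replicate numbers were taken as pairs in the intron data, from the data and not the labels, which tie only the unstimulated cultures of 1 number to 1 dissection: 56 of 56 same-numbered pairs had deviations correlated above 0.1 (0.841 to 0.906), over only 2 numbers. With 2 numbers the deviations within a group mirror each other. Both numbers then give the same r for any 2 groups, so the 56 pairs are not separate values. The 229 columns of samples included 54 that were not used: repeated or identical columns, total RNA enhancer columns with no assigned gene, and 1 column that matched no sample. Some headers of the visual cortex tables spell the inhibitor differently from the labels and were read as SL327. An intron library of vehicle brief 60 min and one of U0126 sustained 60 min held identical values and were both left out. The members, lists and markers were chosen with earlier results of these data known. The text names the 4 genes, the 3 panel genes of most similar pattern for each, and members of the lists that passed.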

Additional observations from a re-analysis of the deposited data

Results flagged for a closer look

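Among 50 groups of 4 to 10 samples, 3 held a sample far from the others, where chance gives about 1 in 20. Adamts1 in unstimulated vehicle cultures was 3.83 in replicate 5, against 0.310 to 0.892 in the other 6. Adamts8 was 0 in replicate 2 of brief activation for 60 min, the library of 8498 reads, against 0.0904 to 0.236 in the others. At the Cyr61 enhancer region chr3:145314180-145315590 (mm9), replicate 2 of the unstimulated vehicle cultures was at 15.8, against 0.806 to 1.35 in the others.

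The response of Acan to 360 min of sustained activation differed between cycloheximide and vehicle by -4.95 on the log2 scale (limma, adjusted p = 0.000738, 2 replicates in each group).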

How the results depend on the processing

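Over all comparisons, 8944 alternative results were alike: values that passed or failed as reported, or counts within 1.5 times of the reported one. These include values of any size, and values of the other sign where neither passed. With the sign kept, 70 values lost their call and 43 gained one. A change of sign where the reported or the alternative value passed was seen for 3 values, and 198 counts moved by over 1.5 times. Rescaling on all features changed the sign at 360 min of sustained activation for Adamts1 (-0.13) and Adamts8 (-0.42), and for Adamts8 against brief activation (-0.22). Under it, 1 of the 4 genes passed in each of these comparisons and with U0126, 2 in vehicle in the cycloheximide experiment, 0 in sustained light at 30 min and 1 in brief light at 30 min.

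With replicates 5 to 7 alone, 0 genes passed at 60 min of sustained activation, 1 at 360 min and 1 against brief activation at 360 min. With U0126 at 360 min, 1 gene passed under the lower pseudocount and 0 with the groups of the comparison alone. In brief light at 30 min, 1 gene passed under the higher pseudocount and with edgeR, and edgeR called 5 panel genes in place of 3.

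The replicate block let 1 gene pass at 60 min of brief activation (also without the shallow library), 2 in the cycloheximide interaction and 2 in introns at 60 min (both also with edgeR). Outside introns the main fits did not take numbers as pairs, since not every same-numbered pair correlated above 0.1. The data hold signs of pairing all the same. In the gene capture 152 of 167 pairs were above 0.1 (median r 0.433 against -0.0801 for other pairs), and 37 of 48 samples were best correlated with their own number. For enhancers it was 161 of 171 pairs and 38 of 39 samples, and in the cycloheximide experiment 6 of 12 pairs. The errors of the main fits outside introns thus include any spread that replicate numbers share. The block also gave 2 genes in place of 1 for 360 against 60 min of sustained activation, 3 in place of 2 with U0126 at 360 min and 1 in place of 0 for cycloheximide in unstimulated cultures. With the block and no shallow library the panel count was 210 in place of 174 for 360 against 60 min. With U0126 at 360 min it was 186 in place of 140. Without the shallow library too, Cyr61 passed for sustained against brief activation at 60 min (1.14, adjusted p = 0.0428). With edgeR and the block, introns gave 1 gene at 20 min of brief activation and 2 at 60 min with U0126. No paired analysis was possible for visual cortex because its samples carry no numbers.

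Leaving out 1 replicate gave 1 to 1 genes at 60 min, 3 to 4 at 360 min and 3 to 4 against brief activation. The panel counts in these comparisons were 34 to 44, 192 to 212 and 167 to 203. For the 4 genes it gave 0 to 2 with U0126 at 360 min, 3 to 4 in vehicle in the cycloheximide experiment and 1 to 2 in its interaction. In visual cortex it gave 0 to 2 in sustained and 0 to 1 in brief light at 30 min, and 0 to 1 for SL327 against corn oil in brief light. Counts of all features called moved by over 1.5 times in the following cases among others. Rescaling gave 114 in place of 197 at 360 min of sustained activation, 100 in place of 187 against brief activation, 111 in place of 211 for vehicle in the cycloheximide experiment, and in sustained light 21 in place of 91 at 30 min, 15 in place of 25 at 150 min and 21 in place of 53 for the interaction with SL327. With the groups of the comparison alone U0126 gave 37 in place of 140 at 360 min and 8 in place of 20 at 60 min, and brief activation for 60 min gave 8 in place of 15. The replicate block gave 73 in place of 45 for the cycloheximide interaction and 57 in place of 34 for enhancers at 60 min, and with edgeR 6142 in place of 1673 for introns at 60 min, 675 in place of 60 at 20 min, 720 in place of 24 at 20 min of brief activation and 3795 in place of 664 at 60 min with U0126. With limma, the replicate block and no shallow library it was 55 in place of 36 at 60 min and 34 in place of 20 with U0126. For enhancers edgeR gave 11 in place of 34 at 60 min, 1 in place of 4 at 20 min and 0 in place of 6 at 20 min of brief activation. Where the construction of an alternative does not show it, the cause was not tested. Depth limits Acan in introns (3 to 21 reads) and in unstimulated cultures.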
